A study of Mus musculus with 15 samples.

Results

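The genes described here encode the proteins that move calcium across the membranes of islet cells: subunits of voltage-gated calcium channels, calcium release channels and pumps of the endoplasmic reticulum, plasma membrane calcium pumps, store-operated entry proteins and channels of the transient receptor potential (TRP) families. They were chosen by gene symbol alone, with 1 transcript cluster (the array's unit of measurement, a set of probes for 1 transcript) per gene. The rule found 61 genes among 19938 genes tested. Of these, 59 encode channel, pump or sensor proteins, while Trpc4ap encodes a protein associated with a TRPC channel and Trpc5os is a gene on the strand opposite Trpc5.

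RNA from sorted mouse islet cells was measured on 15 Affymetrix Mouse Gene 1.0 ST arrays, 5 for each of 3 groups, all on a mixed B6 and BALB/C background. The Pdx1-deficient group carried the genotype label Pdx1-deficient (PKO) and was taken 5 days after tamoxifen. The alpha group was labelled with the alleles RIP-CreER, Pdx1fl/+ and RosaYFP, and the beta group with glucagon-Cre and RosaYFP. Cells of both control groups were sorted by YFP from mice 2 months old. RIP, the rat insulin promoter, is normally active in beta cells and the glucagon promoter in alpha cells, so the drivers on the labels are the reverse of the titled cells. By those labels, the alpha group also had 1 floxed Pdx1 allele. Groups were taken from the titles. The sources used here do not give the driver of the Pdx1 deletion, the age of those mice, whether controls had tamoxifen, or whether each array was a separate animal. The p-values therefore rest on the scatter among arrays, part of which may be technical. In bulk RNA, fewer cells of a type and less RNA per cell cannot be told apart.

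In beta cells, closure of potassium channels depolarises the membrane, voltage-gated calcium channels open, and the calcium that enters triggers insulin granule release. Alpha cells use voltage-gated calcium entry for glucagon release. In both, pumps refill the endoplasmic reticulum, release channels empty it, and STIM proteins sense its emptying and open Orai channels at the plasma membrane.

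Values were log2 signals, and array medians ran from 5.88 to 6.05. Pdx1, the deleted transcription factor gene, read 9.12, 7.83, 7.68, 6.53 and 7.59 in Pdx1-deficient replicates 1 to 5, against 8.85, 9.33, 9.26, 9.02 and 9.26 in beta arrays. The array labelled Pdx1-deficient replicate 1 therefore went against its label, and it is not known which exon was deleted or whether the probes cover it. The difference was -1.39 (SE 0.34, limma adjusted p = 0.0575, two-sided exact permutation p = 0.0238), and -1.74 with that array left out (limma adjusted p = 0.00617). Leaving out the highest array of the group had to widen the fall. The other 14 leave-outs of 1 array did not pass (limma adjusted p from 0.0602 to 0.133). In alpha arrays Pdx1 read 7.27 to 8.21, below every beta array (-1.28, limma adjusted p = 0.0473). This call was lost in 12 of 15 leave-outs (limma adjusted p up to 0.107) and with quantile normalization repeated (-1.18, limma adjusted p = 0.0768). The mean over 8 of 10 listed alpha-cell markers (those measured) ran from 8.77 to 9.08 in Pdx1-deficient arrays, 8.88 to 9.98 in alpha arrays and 8.13 to 8.52 in beta arrays. Its lowest alpha value was that of replicate 2. For 8 of 9 listed beta-cell markers the mean was 9.20 to 9.68 in Pdx1-deficient replicates 2 to 5, 10.52 for the array labelled replicate 1, 9.15 to 9.74 in alpha arrays and 10.30 to 10.57 in beta arrays. The hormone genes separated the groups poorly. Gcg read 12.35 to 12.79 in Pdx1-deficient arrays, 12.49 to 12.87 in alpha arrays and 12.15 to 12.51 in beta arrays. Ins2 read 11.90 to 12.12, 11.86 to 12.09 and 11.77 to 11.98 in the same order of groups, with its lowest mean in beta arrays (11.90). In that order Ppy, the PP-cell marker, read 12.17 to 12.86, 12.02 to 12.67 and 12.01 to 12.60. Sst, a delta-cell marker, read 10.83 to 12.35, 11.30 to 12.53 and 11.67 to 12.57. The mean over 7 of 9 listed acinar markers was 12.15 in alpha replicate 5, 6.06 to 7.62 in the other alpha arrays, 5.99 to 7.25 in Pdx1-deficient arrays and 5.96 to 7.24 in beta arrays. For 6 stromal markers it was 6.02 to 6.29 in Pdx1-deficient arrays, 5.76 to 6.73 in alpha arrays, with replicate 2 lowest, and 5.69 to 6.02 in beta arrays. For 4 delta-cell markers it was 8.36 to 9.18 in Pdx1-deficient, 8.90 to 9.81 in alpha and 8.77 to 9.34 in beta arrays. By limma 5 of the 8 alpha-cell markers rose and 4 of the 8 beta-cell markers fell in alpha against beta arrays. In Pdx1-deficient against beta arrays 1 alpha-cell marker rose and 1 beta-cell marker fell. Also, 1 stromal and 1 delta-cell marker rose in alpha against beta arrays. Of the measured PP, acinar, duct, endothelial, leukocyte, Schwann and neuronal markers 0 passed in a comparison. The part of these marker levels in the results below was not tested.

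A gene was called when its limma p-value, adjusted over 19938 genes, was under 0.05. Between Pdx1-deficient and beta arrays 1 of the 61 genes was called, Atp2a3, which fell, where 1.09% of all genes were called and 0.928% fell. Between alpha and beta arrays 4 of 61 were called, where 4.04% of all genes were. Atp2a3, Atp2a2 and the channel gene Trpc4 fell, as did 3.15% of all genes, and the auxiliary subunit gene Cacng4 rose, as did 0.893%. The count for Pdx1-deficient against beta arrays was 0 without beta replicate 1, 3, 4 or 5 or Pdx1-deficient replicate 2, 4 or 5, and 2 without the array labelled Pdx1-deficient replicate 1, when Atp2a2 joined. For alpha against beta arrays it was 7 without alpha replicate 2, 2 without beta replicate 1, 2, 3 or 5, and 1 without beta replicate 4 or alpha replicate 1, 3, 4 or 5. Without alpha replicate 5, the array with the high acinar markers, the 4 differences were -1.01 for Atp2a3, -0.51 for Atp2a2, -1.02 for Trpc4 and 0.37 for Cacng4, and only Atp2a3 passed (limma adjusted p = 0.0154). Without alpha replicate 2 all 4 passed, with differences of -1.02 for Atp2a3, -0.60 for Atp2a2, -1.27 for Trpc4 and 0.51 for Cacng4. That array was the highest alpha array for Atp2a2 and Trpc4 and the lowest for Cacng4, so those differences had to widen. At an unadjusted p under 0.05 there were 7 higher and 3 lower members in Pdx1-deficient arrays, where 11.0% of all genes were higher and 10.8% lower (21.8% in all). In alpha arrays there were 7 higher and 9 lower members, where 8.75% of all genes were higher and 12.0% lower (20.7% in all).

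The arrays of Pdx1-deficient and beta cells did not overlap for 4 members (6.56%), where 5.96% of all genes did not. These were Cacng2, Cacng4 and Trpv5, each higher (2.77% of all genes), and Trpc4ap, lower (3.18% of all genes). For alpha against beta arrays there were 5 such members (8.20%), where 6.34% of all genes did not overlap. These were Cacng4, Atp2b3 and Trpc5, each higher (2.29% of all genes), and Atp2a2 and Atp2a3, lower (4.05% of all genes). As a list of dim and bright genes together, the members thus differed by these counts at close to the rate of all genes on the array. Trpc4ap, Trpv5, Atp2b3 and Trpc5, and below Cacng3, Orai3, Cacna1c and Trpm5, fall outside the rule for genes named with full values and were chosen after their values were seen.

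The start regions of Atp2a3 and Trpc4 are shown because these were the largest falls among the members in alpha arrays. The sequences are the 250 bases before the annotated start from RefSeq (build GRCm38.p6), which held these 2 of the 4 called genes, with matches to the GC box GGGCGG on either strand in capitals (overlapping matches joined). Atp2a3 starts at the right end of chr11:72960919-72961168 (plus strand) and Trpc4 at that of chr3:54155807-54156056 (plus strand).
Atp2a3: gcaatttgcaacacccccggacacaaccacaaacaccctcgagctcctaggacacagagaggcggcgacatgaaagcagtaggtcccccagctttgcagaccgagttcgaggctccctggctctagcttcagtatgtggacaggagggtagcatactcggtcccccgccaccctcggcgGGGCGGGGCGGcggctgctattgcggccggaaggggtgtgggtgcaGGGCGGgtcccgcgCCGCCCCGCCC
Trpc4: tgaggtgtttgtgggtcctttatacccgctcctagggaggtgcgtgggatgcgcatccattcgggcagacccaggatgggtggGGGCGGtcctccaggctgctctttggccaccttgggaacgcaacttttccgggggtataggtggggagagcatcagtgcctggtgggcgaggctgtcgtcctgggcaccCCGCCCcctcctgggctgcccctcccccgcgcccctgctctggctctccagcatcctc
The Atp2a3 window held 5 matches to the GC box and the Trpc4 window 2, and a match was present in 32.7% of all 32851 start windows of this length and in 45.5% of 66 windows of 51 members. The letters TAAT, the core bound by many homeodomain proteins, were searched on either strand too. They occur in 54.9% of all windows and in 34.8% of the members' windows, and 0 times in these 2 windows. The GC content was 66.8% and 66.4% in the windows printed, and the median over all windows was 52.4%.

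Pumps of the endoplasmic reticulum gave the largest group of calls. Atp2a3, which encodes SERCA3, a calcium pump of the endoplasmic reticulum present in beta cells, fell in Pdx1-deficient and in alpha arrays. Atp2a2, which encodes the widely expressed pump SERCA2, fell in alpha arrays. Atp2a1, the pump gene of fast skeletal muscle, did not pass in either comparison (0.13 and 0.05 on the log2 scale). No pump gene of this group rose.

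Atp2a3 (transcript cluster 10378216) read 8.86, 8.20, 8.43, 8.25 and 8.01 in Pdx1-deficient replicates 1 to 5, against 9.44, 8.79, 9.04, 9.20 and 9.48 in beta arrays. Replicates 2 to 5 lay below every beta array, while the array labelled Pdx1-deficient replicate 1, where Pdx1 was at the beta level, lay inside the beta range. The group means were 8.35 ± 0.32 in Pdx1-deficient arrays and 9.19 ± 0.29 in beta arrays (SD, n = 5 each), which is a difference of -0.84 on the log2 scale (SE 0.16, limma adjusted p = 0.0321), or 1.79-fold lower. Leaving out the array labelled Pdx1-deficient replicate 1 gave -0.97 (limma adjusted p = 0.00667). It was the highest array of its group, so the fall had to widen without it. The call was lost, with limma adjusted p-values of 0.0516 to 0.0854, without beta replicate 1, 3, 4 or 5 and without Pdx1-deficient replicate 2, 4 or 5. It was also lost with only the groups compared (0.0616) and after repeated quantile normalization (-0.69, adjusted p = 0.062).

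In alpha arrays Atp2a3 read 8.14, 8.18, 7.94, 8.46 and 8.15, below every beta array. The alpha mean was 8.17 ± 0.18 and the beta mean 9.19 ± 0.29 (SD, n = 5 each), a difference of -1.02 (SE 0.16, limma adjusted p = 0.00549), or 2.02-fold lower. This call was made in each of the 23 alternatives, with adjusted p-values from 0.00172 to 0.0185. Both comparisons use the same beta arrays. Set directly against each other, Pdx1-deficient and alpha arrays differed by 0.18 (SE 0.16, limma adjusted p = 0.971).

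Atp2a2 (cluster 10533483) read 10.91, 10.92, 10.69, 10.81 and 10.56 in alpha arrays, against 11.30, 11.37, 11.28, 11.51 and 11.25 in beta arrays. The groups did not overlap. The difference was -0.56 (SE 0.13, limma adjusted p = 0.0326), or 1.48-fold lower, from 10.78 ± 0.15 in alpha and 11.34 ± 0.10 in beta arrays (SD, n = 5 each). The call was lost, with adjusted p-values of 0.0504 to 0.0834, without any 1 of the 5 beta arrays and without alpha replicate 1, 3, 4 or 5. In Pdx1-deficient replicates 1 to 5 Atp2a2 read 11.55, 10.83, 10.95, 10.73 and 10.79. Replicates 2 to 5 lay below every beta array, whereas the array labelled Pdx1-deficient replicate 1 lay above all of them. The difference from beta arrays was -0.37 (SE 0.13, limma adjusted p = 0.149), and -0.51 without the array labelled Pdx1-deficient replicate 1 (limma adjusted p = 0.0135). Leaving out this highest array of the group had to widen the fall. The other 14 leave-outs of 1 array did not pass (limma adjusted p from 0.152 to 0.315).

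**Figure D1:**
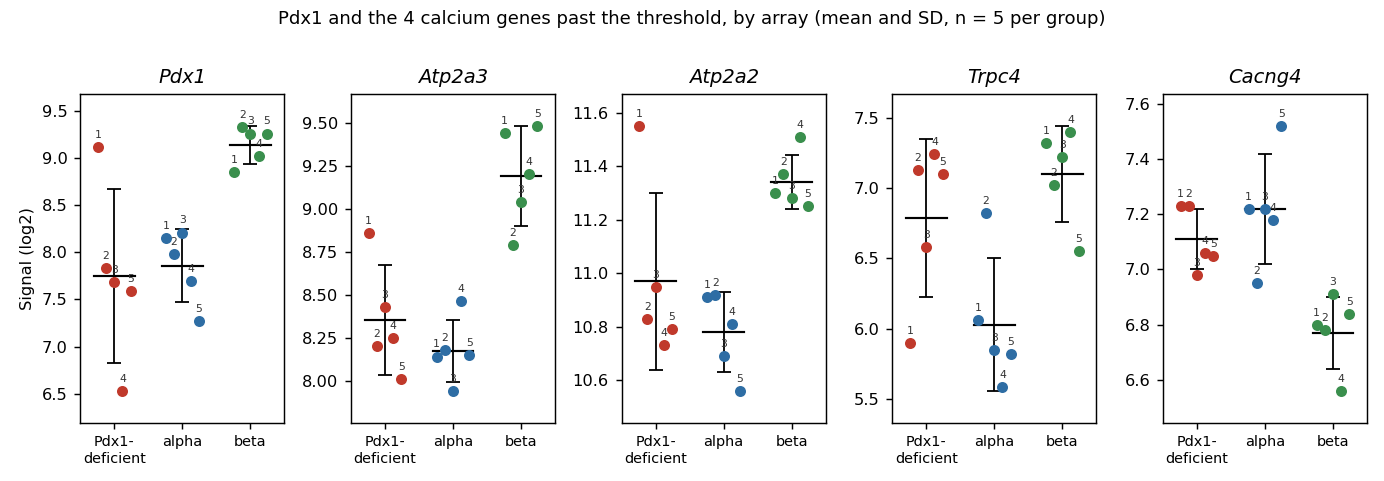
Log2 signal of Pdx1 and of the 4 calcium genes past the threshold in Pdx1-deficient, alpha and beta arrays, with 1 point per array, its replicate number above it, and the mean and SD of each group (n = 5). The array labelled Pdx1-deficient replicate 1 sits among beta arrays for Pdx1 (9.12) and Atp2a3 (8.86), above them for Atp2a2 (11.55), and among alpha arrays for Trpc4 (5.90).

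**Figure D2:**
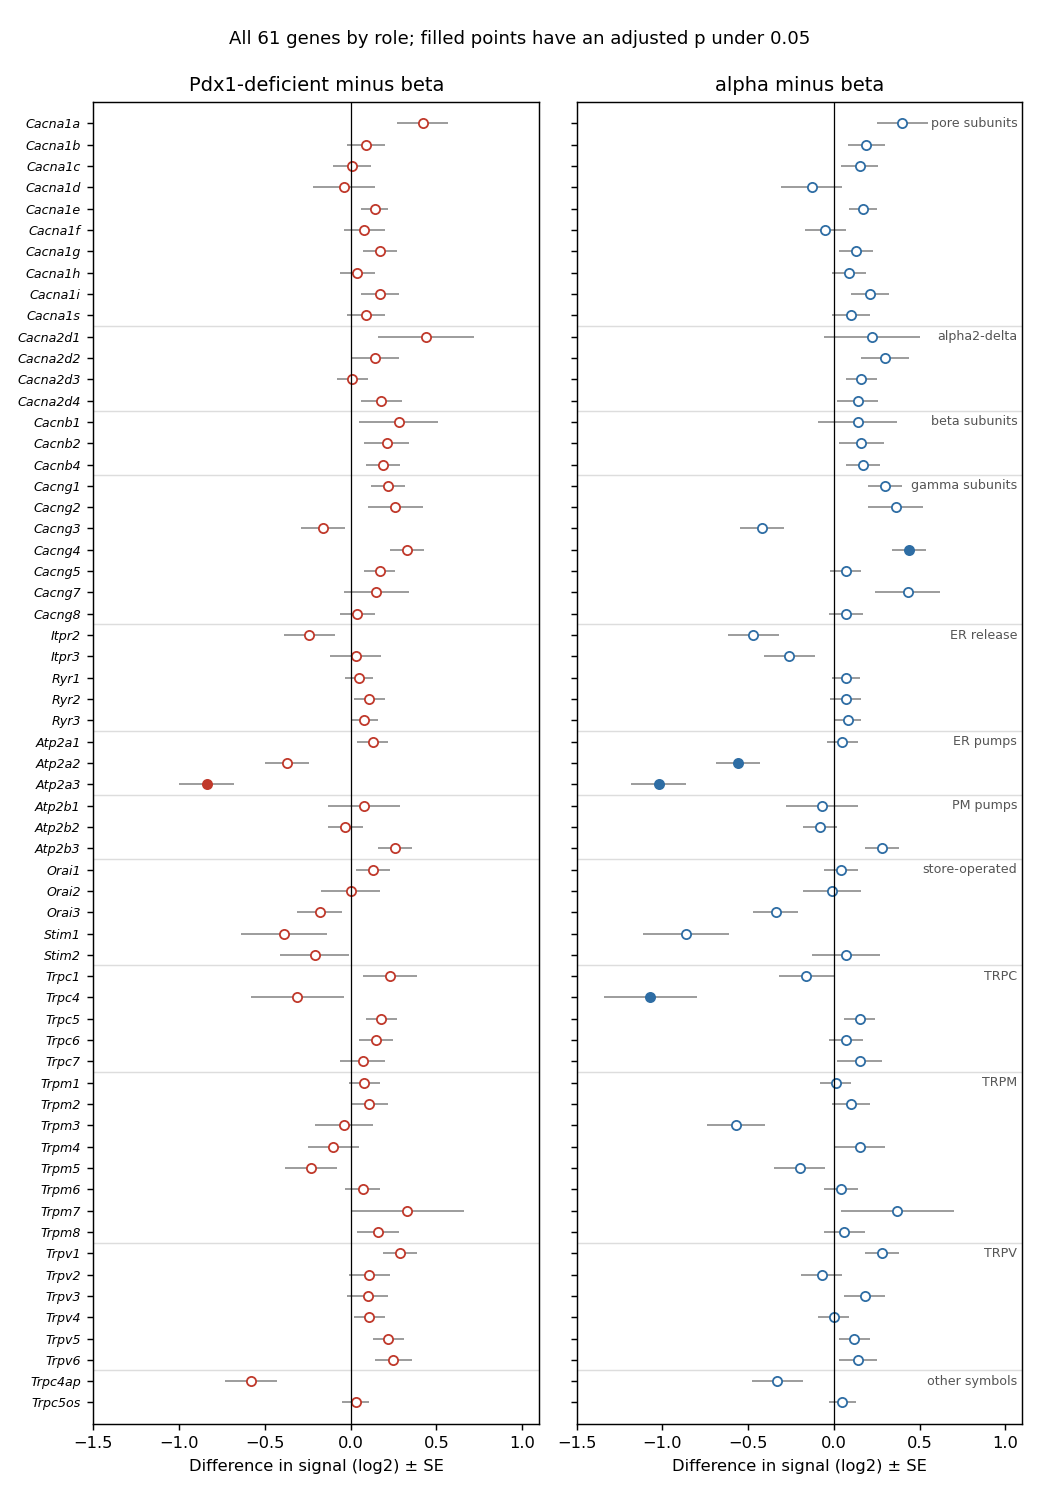
Log2 difference (± SE) of all 61 genes, ordered by role, for Pdx1-deficient minus beta arrays (left) and alpha minus beta arrays (right), with n = 5 arrays per group and filled points for an adjusted p under 0.05. The filled points are Atp2a3 on the left (-0.84) and Cacng4 (0.44), Atp2a2 (-0.56), Atp2a3 (-1.02) and Trpc4 (-1.07) on the right, and most open points lie a little above 0 on this scale but not with array medians subtracted (31 of 61 on the left, 29 on the right).

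On the deposited scale most of the 61 differences were small and positive, and this did not hold under other scalings. Against beta arrays, 46 of 61 were above 0 in Pdx1-deficient arrays (75.4%, and 60.8% of all genes), with a median of 0.10 where all genes had 0.06. In alpha arrays 42 of 61 were above 0 (68.9%, and 58.2% of all genes), with a median of 0.07 against 0.04 for all genes. Of 36 members with a mean signal under the median gene (6.15), 32 were above 0 in Pdx1-deficient arrays (88.9%), as were 82.7% of all genes in that dim range. Of the 25 brighter members 14 were (56.0%), and 38.9% of all brighter genes. With array medians subtracted, the members' medians were 0.00 for Pdx1-deficient and -0.01 for alpha against beta arrays, and those of all genes -0.04 for each. Then 31 of 61 members were above 0 in Pdx1-deficient and 29 in alpha arrays, and with repeated quantile normalization 32 and 29. None of the 36 dim members passed by limma in a comparison. At an unadjusted p under 0.05 there were 4 in Pdx1-deficient against beta arrays (11.1%, and 16.6% of all dim genes). In alpha against beta arrays there were 3 (8.33%, and 12.6% of all dim genes). Of the 25 brighter members, 24.0% did so in Pdx1-deficient arrays (27.0% of all brighter genes) and 52.0% in alpha arrays (28.9% of all brighter genes). The excess in alpha arrays was not tested.

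Pore-forming subunits of voltage-gated calcium channels gave 0 calls among 10 genes in any comparison by limma. At an unadjusted p under 0.05 only Cacna1a, the P/Q-type pore, differed from beta arrays. Of all genes, 21.8% did so in Pdx1-deficient and 20.7% in alpha arrays. It read 7.73, 7.76, 8.38, 8.05 and 7.74 in Pdx1-deficient arrays, 7.67, 8.22, 8.04, 7.98 and 7.61 in alpha arrays, and 7.31, 7.46, 7.76, 7.54 and 7.46 in beta arrays. Only beta replicate 3 reached into the range of the other groups. The differences were 0.42 for Pdx1-deficient (SE 0.15, limma adjusted p = 0.133) and 0.40 for alpha (SE 0.15, limma adjusted p = 0.142) against beta arrays.

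Cacna1d, an L-type pore of islet cells, read 8.78, 8.82, 9.13, 8.82 and 8.29 in Pdx1-deficient arrays, 8.55, 8.77, 8.90, 8.91 and 8.22 in alpha arrays, and 8.82, 8.94, 8.83, 9.17 and 8.26 in beta arrays. The 3 groups overlapped throughout, and replicate 5 was the lowest of each. The differences from beta arrays were -0.04 and -0.13 (SE 0.18 each). Cacna1c, the other L-type pore of mouse islets, averaged 7.49 ± 0.23 in Pdx1-deficient, 7.63 ± 0.19 in alpha and 7.48 ± 0.05 in beta arrays (SD, n = 5 each). The remaining pores (Cacna1b, Cacna1e to Cacna1i and Cacna1s) differed from beta arrays by at most 0.17 in Pdx1-deficient and 0.21 in alpha arrays.

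Auxiliary subunits set the trafficking and gating of the pore. None of 4 alpha2-delta genes and none of 3 beta subunit genes passed by limma, and none had an unadjusted p under 0.05 against beta arrays. Cacna2d1 read 9.68, 9.62, 9.83, 9.92 and 9.48 in Pdx1-deficient, 9.09, 9.34, 9.63 and 9.34 in alpha replicates 1, 3, 4 and 5, with replicate 2 the highest, and 8.91, 9.63, 9.87, 9.82 and 8.10 in beta arrays. Beta replicates 1 and 5 were the lowest of all 15. The difference was 0.44 in Pdx1-deficient (SE 0.28, limma adjusted p = 0.354) and 0.22 in alpha arrays (SE 0.28, limma adjusted p = 0.684). A dimmer Cacna2d1 cluster gave 0.48 and -0.24, so the alpha difference changed sign with the cluster. Cacna2d2 averaged 5.86 ± 0.14 in Pdx1-deficient, 6.02 ± 0.30 in alpha and 5.72 ± 0.21 in beta arrays, Cacnb2 7.57 ± 0.10, 7.52 ± 0.28 and 7.36 ± 0.19, and Cacnb1 6.42 ± 0.34, 6.28 ± 0.08 and 6.14 ± 0.59 (SD, n = 5 each, groups in the same order).

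The gamma family holds a true channel subunit of skeletal muscle, Cacng1, and members better known as auxiliary subunits of AMPA-type glutamate receptors, among them Cacng2, Cacng3, Cacng4 and Cacng8. Cacng4 (cluster 10392369) read 7.22, 6.95, 7.22, 7.18 and 7.52 in alpha arrays, against 6.80, 6.78, 6.91, 6.56 and 6.84 in beta arrays. The groups did not overlap, though alpha replicate 2 lay close to beta replicate 3. The difference was 0.44 (SE 0.10, limma adjusted p = 0.0274), or 1.36-fold higher, with means of 7.22 ± 0.20 in alpha and 6.77 ± 0.13 in beta arrays (SD, n = 5 each). The call was lost, with adjusted p-values of 0.0503 to 0.0677, without beta replicate 1, 4 or 5 or alpha replicate 1, 3, 4 or 5. It was also lost with only the groups compared (0.0525), array medians subtracted (0.36, adjusted p = 0.0527) and trend and robust moderation (0.0518). In Pdx1-deficient arrays Cacng4 read 7.23, 7.23, 6.98, 7.06 and 7.05, above every beta array, with a difference of 0.33 that did not pass (SE 0.10, limma adjusted p = 0.102).

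Cacng2 read 6.49, 6.37, 6.46, 6.43 and 6.63 in Pdx1-deficient arrays, above the beta arrays at 6.11, 6.33, 6.16, 6.21 and 6.27 (0.26, SE 0.16, limma adjusted p = 0.329). In alpha arrays it read 7.30, 6.27, 6.67, 6.31 and 6.31, with replicate 1 highest. Cacng3 lay on the other side of 0 from the rest of the family in alpha arrays. It averaged 4.17 ± 0.11 there and 4.59 ± 0.31 in beta arrays (SD, n = 5 each), a difference of -0.42 (limma adjusted p = 0.0835). It passed with array medians subtracted (-0.50, limma adjusted p = 0.0346) and with repeated quantile normalization (-0.54, limma adjusted p = 0.0337). Without beta replicate 1 it passed too (-0.54, limma adjusted p = 0.0209). Of the 7 gamma genes, 6 were above 0 in each comparison with beta arrays, where 60.8% and 58.2% of all genes were. With array medians subtracted these were 5 in Pdx1-deficient and 4 in alpha arrays. At an unadjusted p under 0.05, 4 were higher in alpha arrays (Cacng1, Cacng2, Cacng4 and Cacng7) and 1 lower (Cacng3). That is 71.4%, and 20.7% of all genes. In Pdx1-deficient arrays 2 were higher, Cacng1 and Cacng4 (28.6%, and 21.8% of all genes in either direction).

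Release channels of the endoplasmic reticulum gave 0 calls among 5 genes by limma. At an unadjusted p under 0.05 Itpr2 alone was lower in alpha than in beta arrays, where 12.0% of all genes were lower. Itpr2, an inositol trisphosphate receptor, read 6.64, 6.48, 6.53, 6.75 and 6.44 in Pdx1-deficient arrays, 6.48, 6.39, 6.27, 6.10 and 6.48 in alpha arrays, and 6.44, 6.92, 6.86, 7.37 and 6.47 in beta arrays. Beta replicates 2, 3 and 4 stood above all alpha arrays, and beta replicates 1 and 5 did not. The alpha difference was -0.47 (SE 0.15, limma adjusted p = 0.0973) and the Pdx1-deficient difference -0.24 (SE 0.15, limma adjusted p = 0.34). Itpr3, a related receptor, read 7.30, 7.21, 7.51, 7.21 and 7.50 in Pdx1-deficient arrays, above all alpha arrays at 7.04, 7.18, 7.14, 6.96 and 6.98, where 0.637% of all genes did not overlap and 0.356% were higher. That difference was 0.29 (SE 0.15, limma adjusted p = 0.879). Beta arrays spanned 6.95 to 7.94. The ryanodine receptor genes Ryr1, Ryr2 and Ryr3, the large release channels of muscle and neurons, differed from beta arrays by 0.05 to 0.11.

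Plasma membrane pumps export calcium from the cell. None of 3 passed by limma, and at an unadjusted p under 0.05 only Atp2b3 was higher, in each comparison with beta arrays. Of all genes, 11.0% were higher in Pdx1-deficient and 8.75% in alpha arrays. Atp2b1 read 9.86, 9.92, 9.76, 9.87 and 9.89 in Pdx1-deficient arrays, 9.46, 10.04, 9.58, 9.85 and 9.61 in alpha arrays, and 9.30, 10.15, 10.12, 10.30 and 9.02 in beta arrays. The Pdx1-deficient arrays lay within a range of 9.76 to 9.92, and beta replicates 1 and 5 were again the lowest of 15. Atp2b2 averaged 7.59 ± 0.05 in Pdx1-deficient, 7.54 ± 0.18 in alpha and 7.62 ± 0.15 in beta arrays (SD, n = 5 each). Atp2b3 averaged 5.27 ± 0.22 in Pdx1-deficient, 5.29 ± 0.05 in alpha and 5.01 ± 0.09 in beta arrays (SD, n = 5 each), with differences of 0.26 (limma adjusted p = 0.152) and 0.28 (limma adjusted p = 0.116).

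Store-operated entry genes gave 0 calls among 5 by limma. At an unadjusted p under 0.05, Stim1 and Orai3 were lower in alpha than in beta arrays, as were 12.0% of all genes. Stim1, a calcium sensor in the membrane of the endoplasmic reticulum, read 7.35, 8.24, 6.37, 7.02 and 7.32 in alpha arrays, against 8.42, 8.19, 7.84, 8.05 and 8.10 in beta arrays. Alpha replicate 2 lay in the beta range and the other 4 below it. The difference was -0.86 (SE 0.25, limma adjusted p = 0.071), and -1.10 without alpha replicate 2 (limma adjusted p = 0.00453). That array was the highest of its group, so leaving it out had to widen the fall. The other 14 leave-outs of 1 array did not pass (limma adjusted p from 0.0656 to 0.158). In Pdx1-deficient arrays Stim1 read 7.68, 7.76, 7.87, 7.29 and 8.06 (-0.39, SE 0.25, limma adjusted p = 0.364), with a mean between those of the control groups. Stim2, the related sensor, averaged 8.59 ± 0.25 in Pdx1-deficient, 8.87 ± 0.40 in alpha and 8.79 ± 0.34 in beta arrays (SD, n = 5 each). Of the Orai genes, which encode the entry pore, Orai3 had the largest difference in alpha arrays (6.89 ± 0.11, against 7.23 ± 0.25 in beta arrays; SD, n = 5 each; -0.34, limma adjusted p = 0.153).

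**Figure D3:**
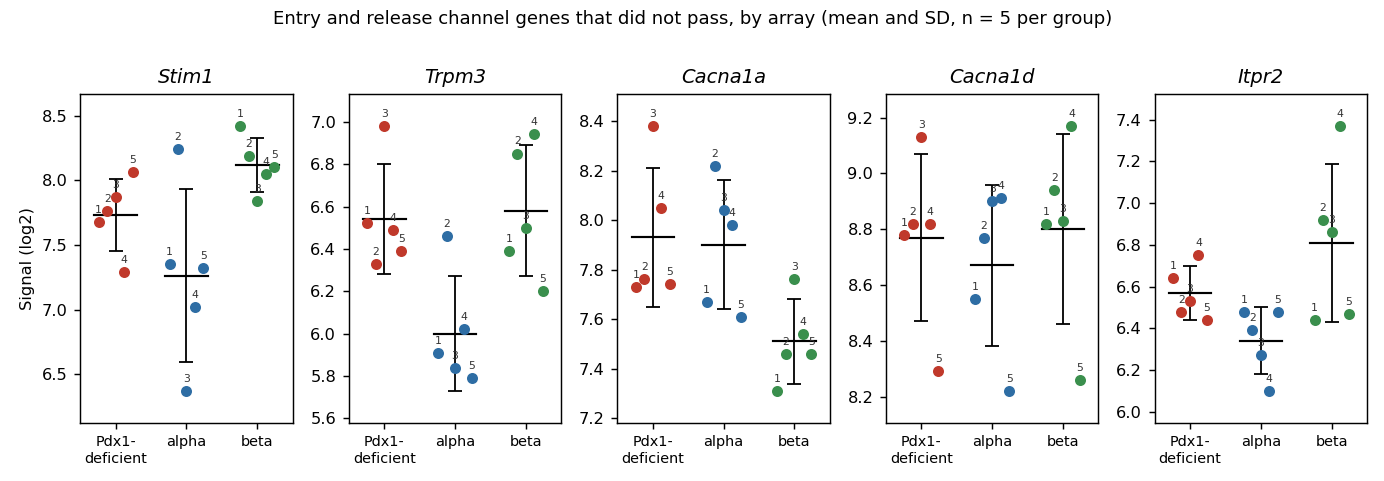
Log2 signal of 5 calcium entry and release genes (channel genes and the sensor gene Stim1) that did not pass the threshold in Pdx1-deficient, alpha and beta arrays. Each array has 1 point with its replicate number above it, and each group its mean and SD (n = 5). Alpha replicate 2 sits among beta arrays for Stim1 (8.24) and Trpm3 (6.46), and the groups overlap for Cacna1d.

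TRP channels are cation channels, many of them permeable to calcium. Of 19 TRP channel genes 1 passed, Trpc4, in alpha against beta arrays. Trpc4 (cluster 10492006), a receptor-operated channel gene, read 6.06, 6.82, 5.85, 5.59 and 5.82 in alpha arrays, against 7.32, 7.02, 7.22, 7.40 and 6.55 in beta arrays. Alpha replicate 2 lay above beta replicate 5, the only overlap. The means were 6.03 ± 0.47 in alpha and 7.10 ± 0.34 in beta arrays (SD, n = 5 each), a difference of -1.07 (SE 0.27, limma adjusted p = 0.0386), or 2.10-fold lower. Without alpha replicate 2 it was -1.27 (limma adjusted p = 0.00753). As that array was the highest of its group, the fall had to widen without it. The call was lost, with adjusted p-values of 0.0573 to 0.0946, without beta replicate 1, 2, 3 or 4 or alpha replicate 1, 3, 4 or 5.

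In Pdx1-deficient arrays Trpc4 read 5.90, 7.13, 6.58, 7.24 and 7.10. Replicates 2 to 5 lay in the beta range of 6.55 to 7.40, and the array labelled Pdx1-deficient replicate 1 lay with the alpha arrays, the reverse of its place for Pdx1 and Atp2a3. The difference from beta arrays was -0.31 (SE 0.27, limma adjusted p = 0.481), and -0.09 with that array left out (limma adjusted p = 0.827). The difference from alpha arrays was 0.76 (SE 0.27, limma adjusted p = 0.611). It was 0.98 with only the array labelled Pdx1-deficient replicate 1 left out (limma adjusted p = 0.256) and 0.96 with only alpha replicate 2 left out (limma adjusted p = 0.114). With both left out, Trpc4 passed and was 1.18 higher in Pdx1-deficient than in alpha arrays on the log2 scale (limma adjusted p = 0.00899). These were the lowest Pdx1-deficient array (5.90) and the highest alpha array (6.82) for Trpc4. Leaving them out had to widen the difference, so that p-value is no separate support for it. Trpc1, a close relative, read 8.34, 8.33, 8.62, 8.82 and 8.50 in Pdx1-deficient, 7.98, 8.34, 8.44, 8.34 and 7.56 in alpha, and 8.25, 8.14, 8.34, 8.55 and 8.19 in beta arrays, with wide overlap.

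Trpm3, a steroid- and heat-gated channel gene of mouse beta cells, read 6.52, 6.33, 6.98, 6.49 and 6.39 in Pdx1-deficient arrays, 5.91, 6.46, 5.84, 6.02 and 5.79 in alpha arrays, and 6.39, 6.85, 6.50, 6.94 and 6.20 in beta arrays. As for Stim1 and Trpc4, alpha replicate 2 alone of its group lay in the beta range. The alpha difference was -0.57 (SE 0.17, limma adjusted p = 0.0671), and -0.69 without that array (limma adjusted p = 0.0196). Leaving out this highest alpha array had to widen the fall. The other 14 leave-outs of 1 array did not pass (limma adjusted p from 0.0544 to 0.151). The Pdx1-deficient difference was -0.04 (SE 0.17, limma adjusted p = 0.905). Trpm5, a calcium-activated cation channel gene known from taste cells and beta cells, averaged 5.53 ± 0.33 in Pdx1-deficient, 5.56 ± 0.21 in alpha and 5.76 ± 0.18 in beta arrays (SD, n = 5 each), and Trpm2 and Trpm4 differed from beta arrays by at most 0.15 in size.

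All 6 TRPV genes lay above 0 in Pdx1-deficient against beta arrays, by 0.10 to 0.29, as did 82.7% of all dim genes. By limma 0 passed. At an unadjusted p under 0.05 there were 3, Trpv1, Trpv5 and Trpv6, where 11.0% of all genes were higher. With array medians subtracted all 6 lay above 0, and with quantile normalization repeated 3 did. Each of the 6 had a mean under that of the median gene. Trpv3 averaged 5.54 ± 0.25 in Pdx1-deficient, 5.61 ± 0.13 in alpha and 5.44 ± 0.19 in beta arrays, and Trpv4 5.60 ± 0.19, 5.48 ± 0.06 and 5.48 ± 0.11 (SD, n = 5 each, groups in the same order). Trpc4ap, which is no channel, read 7.90, 8.24, 8.23, 7.88 and 7.49 in Pdx1-deficient arrays, below every beta array at 8.83, 8.28, 8.48, 8.49 and 8.58. Its difference of -0.58 did not pass (limma adjusted p = 0.065). It passed with array medians subtracted (-0.68, adjusted p = 0.0357) and with dim genes removed (-0.58, adjusted p = 0.048).

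Between Pdx1-deficient and alpha arrays 0 of the 61 genes and 0% of all genes passed by limma. At an unadjusted p under 0.05 there were 3 members, each higher in Pdx1-deficient arrays, where 3.10% of all genes were higher. They were Trpm3 (0.54, SE 0.17), Trpc4 (0.76, SE 0.27) and Trpc1 (0.39, SE 0.16).

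Some members spread widely within a group. Trpm7, a cation channel with a kinase domain, read 7.62, 7.64, 7.88, 7.41 and 7.07 in Pdx1-deficient arrays, 6.64, 7.86, 7.78, 8.02 and 7.55 in alpha arrays, and 6.43, 7.91, 7.78, 7.60 and 6.26 in beta arrays. Beta replicates 1 and 5 lay at least 1.17 below the other 3 beta arrays for Trpm7, 0.82 for Atp2b1 and 0.72 for Cacna2d1. These replicates were lower than the other beta arrays by at least 0.5 for 3 of 61 members (4.92%) and for 3.19% of all genes. All 3 were among the 25 brighter members (12.0%), where 5.91% of all brighter genes did so. This excess was not tested. The median SD within a group was 0.15 in Pdx1-deficient, 0.18 in alpha and 0.15 in beta arrays for the members, and 0.20, 0.19 and 0.17 for all genes.

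**Figure D4:**
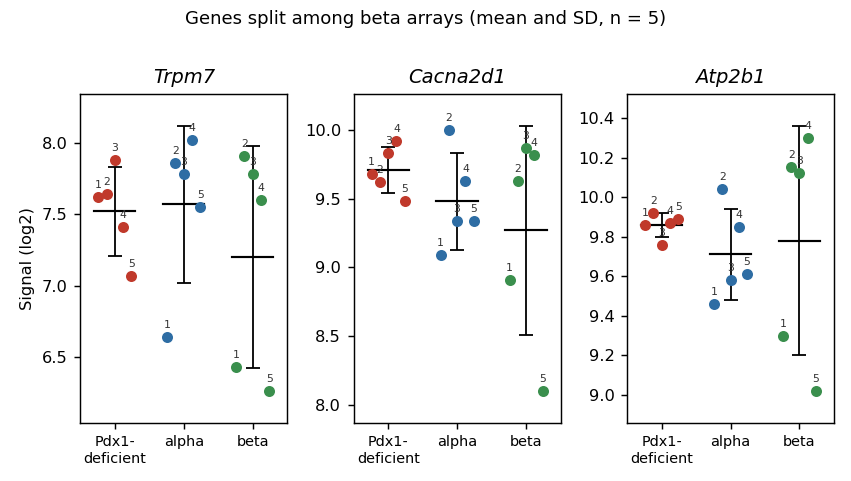
Log2 signal of Trpm7, Cacna2d1 and Atp2b1 in Pdx1-deficient, alpha and beta arrays, with 1 point per array, its replicate number above it, and the mean and SD of each group (n = 5). Beta replicates 1 and 5 lie apart from the other 3 beta arrays in each gene, by at least 1.17 for Trpm7.

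Among 66 measured partner genes of calcium handling (exchangers, mitochondrial uptake proteins, luminal and cytosolic calcium binders and regulators), 2 fell and 0 rose in Pdx1-deficient arrays, and 5 fell and 0 rose in alpha arrays, each against beta arrays. Of all genes, 0.928% fell in Pdx1-deficient and 3.15% in alpha arrays (1.09% and 4.04% called), and this list was chosen with earlier results of these data known. Calr, which encodes the calcium-binding chaperone calreticulin of the endoplasmic reticulum, read 10.68, 10.51, 10.30, 10.02 and 9.98 in Pdx1-deficient arrays, 10.43, 10.11, 10.48, 10.36 and 10.11 in alpha arrays, and 10.81, 10.92, 10.91, 11.02 and 11.19 in beta arrays. Each of the other groups lay below every beta array, with differences of -0.67 for Pdx1-deficient (limma adjusted p = 0.0339) and -0.67 for alpha arrays (limma adjusted p = 0.0158). Saraf, whose product limits store-operated entry, read 8.67, 8.78, 8.94, 8.31 and 8.24 in Pdx1-deficient arrays, 8.10, 8.87, 8.68, 8.67 and 8.32 in alpha arrays, and 9.35, 9.03, 9.51, 9.41 and 9.37 in beta arrays. It too lay below every beta array in each of the other groups (-0.75, limma adjusted p = 0.0425, and -0.81, limma adjusted p = 0.0157).

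Further falls in alpha arrays were Atp2c1, a Golgi calcium and manganese pump gene (-0.84, limma adjusted p = 0.0158), Micu2, which encodes a gatekeeper of the mitochondrial calcium uniporter (-0.79, limma adjusted p = 0.0309), and Letm1, a cation exchange gene of the inner mitochondrial membrane (-0.53, limma adjusted p = 0.0277). Their Pdx1-deficient differences were -0.42, -0.37 and -0.31 and did not pass. Atp2c1 averaged 8.63 ± 0.20 in Pdx1-deficient, 8.21 ± 0.37 in alpha and 9.05 ± 0.25 in beta arrays (SD, n = 5 each). The Pdx1-deficient count of 2 ran from 0 to 2 over 15 leave-outs and the alpha count of 5 from 3 to 6. With only the groups compared, or quantile normalization repeated, the Pdx1-deficient count was 0, and the alpha count was 5 or 3. Calr lost its Pdx1-deficient call in 7 of these leave-outs (adjusted p up to 0.0898) and Saraf in 8 (up to 0.113), while in alpha arrays Calr, Saraf and Atp2c1 passed in all 15. Micu2 lost its alpha call in 7 leave-outs (up to 0.0809) and Letm1 in 5 (up to 0.0745), and both lost it with quantile normalization repeated (0.0594 and 0.0603).

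**Figure D5:**
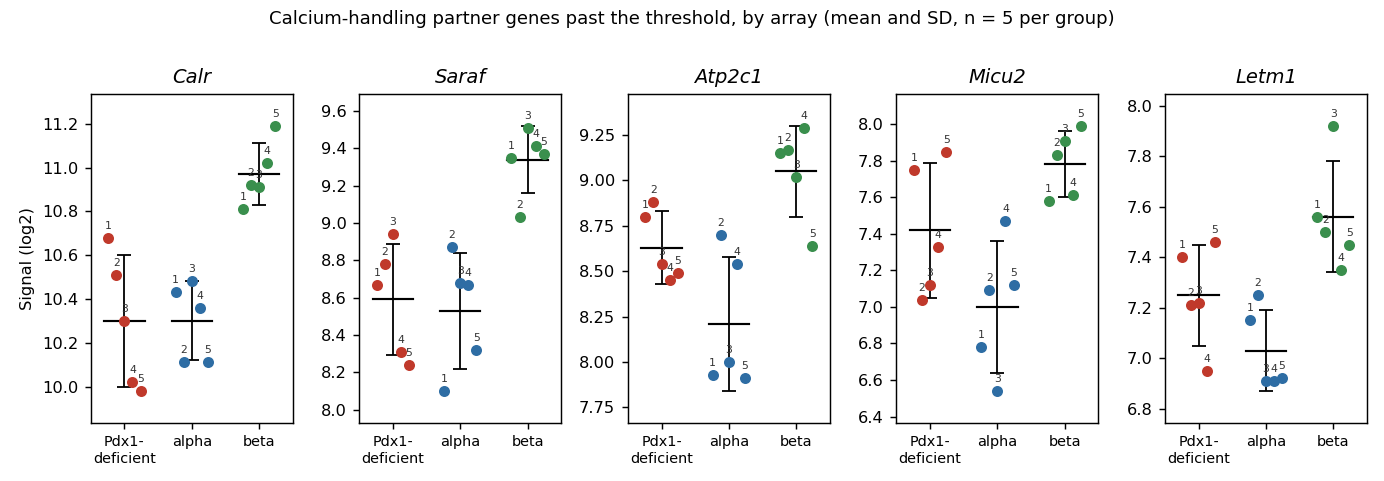
Log2 signal of the 5 calcium-handling partner genes past the threshold in Pdx1-deficient, alpha and beta arrays, with 1 point per array, its replicate number above it, and the mean and SD of each group (n = 5). For Calr and Saraf every Pdx1-deficient and alpha array lies below every beta array, and for Micu2 and Letm1 every alpha array does.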

How the data were processed

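Per the labels, total RNA was labelled and hybridised to Affymetrix Mouse Gene 1.0 ST arrays. Affymetrix Expression Console was used by the authors, per the submitters' processing notes. The deposited values were taken as log2 signals from their range (2.11 to 13.45). The sources used here give no summarization method, background correction, log base or build, and folds hold only if the base is 2. The annotation gave 1 gene symbol to 21789 of 35556 clusters. For each of 19938 genes the brightest such cluster (highest mean of 15 arrays) was used. Of the 61 members, 3 had a further cluster.

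Groups were compared with limma 3.58.1 (lmFit and eBayes, R 4.3.3) with 1 mean per group and all 15 arrays fitted together. Two-sided p-values were adjusted by the Benjamini-Hochberg method over all 19938 genes, with a threshold of 0.05. The script was tested on simulated data. No filter on signal was applied. Arrays give no counting depth, and their number, 5 per group, limits the precision.

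The members and lists were chosen with earlier results of these data known. Genes named by rule are those past the threshold, the 2 with the highest mean signal per role, and those with a difference of at least 1 whose groups did not overlap. Other members appear by means, ranges or counts, or as choices made after their values were seen. Alternatives were fit, scaling, filter, moderation, cluster choice, a replicate block and leaving out arrays.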

Additional observations from a re-analysis of the deposited data

Results flagged for a closer look

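In 69 groups of 5 arrays (22 named genes and Pdx1, 3 groups each), the highest or lowest array was checked for a wide gap to its nearest neighbour relative to the group's range. Such a gap is met by about 1 in 20 groups by chance, and 3 were found. Atp2a2 read 11.55 in the array labelled Pdx1-deficient replicate 1, where the next Pdx1-deficient array read 10.95. Cacna2d2 read 6.55 in alpha replicate 1, and the next alpha array 5.94. Trpm3 read 6.98 in Pdx1-deficient replicate 3, and the next array of its group 6.52.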

How the results depend on the processing

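Between Pdx1-deficient and beta arrays, the count of 1 called member was 0 with only the groups compared, with repeated quantile normalization and with the replicate block. Over all genes the count went from 217 to 89, 29 and 8 in those fits. It was 2 with array medians subtracted and with dim genes removed (Trpc4ap joining Atp2a3), and 2 with alpha replicate 2 and the array labelled Pdx1-deficient replicate 1 both left out (Atp2a2 joining). Leaving out 1 array gave 0 to 2 members. Between alpha and beta arrays the count of 4 (3 lower, 1 higher) was 7 with array medians subtracted (7 lower), 7 with those arrays left out, 2 with the replicate block, and 1 to 7 on leaving out 1 array. With the block, Atp2a3 in Pdx1-deficient arrays, Cacng4 and Trpc4 had adjusted p-values of 0.0595, 0.0503 and 0.0601, and the 2 partner genes lower in Pdx1-deficient arrays no longer passed (Calr 0.0751, Saraf 0.0723). Between Pdx1-deficient and alpha arrays the members' count was 1 without those arrays (Trpc4), where 177 of all genes were called, and 0 in every other alternative. The cause of these changes was not tested. The 5 called differences kept their direction in all 23 alternatives and passed in 23 (Atp2a3, alpha), 14 (Atp2a2), 14 (Trpc4), 12 (Cacng4) and 13 (Atp2a3, Pdx1-deficient). Over the 15 leave-outs of 1 array they passed in 15, 6, 7, 8 and 8, in the same order. In 5 of these 15 the array left out was of the group not compared. That left the difference unchanged and every call was kept, so these passes say little about stability. Of 1394 alternative values for 61 differences that did not pass (of the 22 named genes in 3 comparisons), 1392 moved by less than 1 SD. This outcome was nearly fixed. Leaving out 1 array can move a group mean only by less than 1 SD, and several alternatives leave the difference unchanged. Pdx1 in Pdx1-deficient against beta arrays was -1.49 with medians subtracted (adjusted p = 0.0368) and -1.74 without those arrays, and -1.74 to -1.09 on leaving out 1 array. In alpha against beta arrays it was -1.28 with the replicate block (adjusted p = 0.0506) and -1.37 to -1.13 on leaving out 1 array. Between Pdx1-deficient and alpha arrays it ran from -0.45 to 0.19, reversing without Pdx1-deficient replicate 4 (0.19). Same-numbered arrays did not deviate together in every pair (correlations from -0.172 to 0.224; between alpha and beta arrays from 0.00504 to 0.224, with 3 of 5 over 0.1), and 3 of 15 arrays correlated best with their own number. Pairing was therefore not assumed. The files used give no detection call, so small differences of the 36 dim members cannot be set against background.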
